A study of Homo sapiens with 2 samples.

Results

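The genes examined were the cytochrome P450 enzymes CYP1A1, CYP1A2, CYP1B1 and CYP2E1, the aryl hydrocarbon receptor AHR with its partner ARNT and its repressor AHRR, and the P450 reductase POR. They were taken by symbol from the deposited table, and all 8 members were found among its 18930 genes. RNA sequencing covered 1 library whose label reads DR (dacarbazine-resistant) and 1 whose label reads WT. The labels give A375, melanoma and skin for the pair, with culture in DMEM and serum, whereas the study names RPMI medium with serum for its tumor cells. The study derived the DR cells by exposing A375, an established human melanoma line, to increasing dacarbazine (DTIC), an alkylating drug, and kept the cells that survived the last passage, with no cloning step described. WT cells were its wild-type control, although the labels give 105 days of drug, spelled DITC, for both libraries. The study compared the pair to examine DTIC resistance.

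Each count column was matched to its library by the sample description, and the column names differ by 1 punctuation mark, so that every direction below rests on those descriptions and the names DR library and WT library follow the labels alone. The libraries held 54878355 (DR) and 35294670 (WT) estimated reads. Levels are given as CPM, reads scaled to library size after TMM, a trimmed-mean correction for library composition. Differences are the log2 ratio of CPM, the DR library over the WT library, with a 95% Clopper-Pearson interval for read counting. There was no replicate, no test between conditions was possible, and the interval covers counting error only. A gene was counted as higher or lower when it differed by at least 2-fold and had at least 10 reads over both libraries, which 16210 genes had. In these bulk libraries, fewer cells of a type and less RNA per cell cannot be told apart.

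Markers of melanocytes were low against those of plasma cells in both libraries. The 10 plasma cell markers with counts ranged from 58.1 CPM upward in the DR library and from 64.5 CPM upward in the WT library, and summed to 5190 and 6256 CPM. The 8 melanocytic markers with counts summed to 43.0 and 42.1 CPM, with SOX10 at 3 and 0 reads and TYRP1 at 0 and 17 reads, and MITF, which other cells also express, supplied 34.6 and 34.7 CPM of the sums. The hepatocyte markers, relevant because CYP1A2 and CYP2E1 are chiefly liver enzymes, summed to 8.87 and 1.26 CPM, of which CPS1, a urea cycle enzyme, supplied 7.54 and 0.52 CPM, and ALB had 9 and 1 reads. The 6 fibroblast and 6 keratinocyte markers with counts summed to 14.2 and 3.21 CPM and to 23.1 and 27.4 CPM. What part these levels have in the results was not tested, and the samples are named by their labels only.

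DTIC is a prodrug. Oxidative demethylation by CYP1A1, CYP1A2 or CYP2E1 opens the way to a methylating species that attacks guanine in DNA, and in patients this step takes place mainly in the liver. The P450 enzymes sit in the endoplasmic reticulum, hold a haem iron and draw their electrons from NADPH through POR. AHR, a ligand-activated bHLH-PAS transcription factor, waits in the cytosol in a complex with HSP90, moves to the nucleus when bound by a ligand and pairs with ARNT. The pair binds DNA at elements with the core GCGTG and induces CYP1A1, CYP1A2, CYP1B1 and AHRR, whose product competes for ARNT and closes the loop.

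The start regions of 4 of these genes are shown because CYP1A1, CYP2E1 and AHRR were lower by at least 2-fold while CYP1A2, the neighbour of CYP1A1 on chromosome 15, was not. RefSeq (GRCh38.p14) gave start regions for 6 members, matched by gene ID, but none for CYP1B1 and POR. The 250 bases before each start are printed 5′ to 3′ on the strand of the gene, and capitals mark GCGTG on either strand and TATAAA, the TATA box letters, on the strand of the gene. The windows lie at chr15:74725529-74725778 (minus strand) for CYP1A1, chr15:74748595-74748844 (plus strand) for CYP1A2, chr10:133527113-133527362 (plus strand) for CYP2E1 and chr5:321464-321713 (plus strand) for the first of the AHRR starts listed.
CYP1A1: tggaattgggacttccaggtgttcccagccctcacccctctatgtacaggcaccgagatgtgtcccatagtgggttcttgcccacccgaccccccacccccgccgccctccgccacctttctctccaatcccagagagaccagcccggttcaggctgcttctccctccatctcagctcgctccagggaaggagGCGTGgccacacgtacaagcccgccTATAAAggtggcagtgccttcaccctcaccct
CYP1A2: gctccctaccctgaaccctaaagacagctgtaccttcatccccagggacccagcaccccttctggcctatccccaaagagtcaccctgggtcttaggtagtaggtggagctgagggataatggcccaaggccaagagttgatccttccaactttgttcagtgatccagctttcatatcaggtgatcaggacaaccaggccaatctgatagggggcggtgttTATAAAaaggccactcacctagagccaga
CYP2E1: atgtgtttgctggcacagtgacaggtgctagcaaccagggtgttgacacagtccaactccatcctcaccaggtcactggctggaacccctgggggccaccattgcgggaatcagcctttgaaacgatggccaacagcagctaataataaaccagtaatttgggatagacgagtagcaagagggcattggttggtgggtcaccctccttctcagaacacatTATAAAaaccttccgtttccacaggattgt
AHRR: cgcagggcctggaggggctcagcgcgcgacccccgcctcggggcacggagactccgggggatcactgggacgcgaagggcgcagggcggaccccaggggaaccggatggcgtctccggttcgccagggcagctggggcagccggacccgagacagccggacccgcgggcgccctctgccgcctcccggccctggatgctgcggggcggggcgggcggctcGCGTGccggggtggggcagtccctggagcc

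The 3 P450 genes share TATAAA close to the start, beginning 32, 29 and 30 bases before it in CYP1A1, CYP1A2 and CYP2E1, and 6.80% of all 35116 windows of this length hold those letters. CYP1A1 has 1 GCGTG, 57 bases before the start, and AHRR has 1, 30 bases before it. The core alone is common, with 32.2% of all windows holding it on either strand. In AHRR the core is part of the longer form TNGCGTG, which 4.52% of windows hold and no other member's window does. CYP1A2, CYP2E1, AHR and ARNT have no GCGTG in these windows. The other AHRR start has 2, beginning 247 and 42 bases before it. The letters are a description of these windows only, and the well-known AHR enhancers of CYP1A1 lie farther upstream.

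Of the 8 members, 4 were at least 2-fold lower in the DR library, against 6.46% of all genes with at least 10 reads, and 0 were at least 2-fold higher, against 12.0% of all genes. CYP1A1, CYP1B1, CYP2E1 and AHRR were the lower ones. The median log2 ratio of the members was -0.85, and that of all genes was 0.01. Low counts widen ratios, so the share past 2-fold depends on depth. Among genes with at least 10 but under 100 reads, where CYP1B1 and CYP2E1 lie, 14.7% were lower and 28.1% higher. Among genes with at least 100 but under 1000 reads, where AHRR lies, 8.26% were lower and 19.8% higher. Among genes with 1000 reads or more, where CYP1A1 lies, 3.44% were lower and 4.39% higher.

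**Figure D1:**
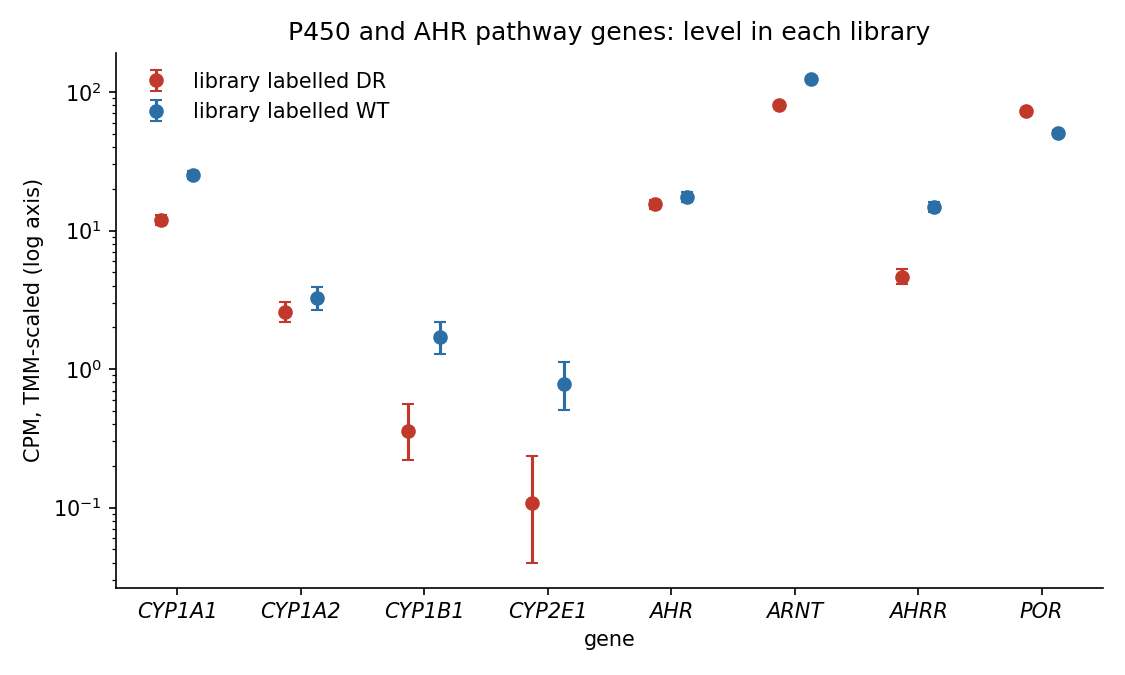
CPM (log axis) of the 8 members in the DR library (red) and the WT library (blue), with exact 95% Poisson intervals for read counting. The red point lies below the blue one for every member except POR, and the intervals are apart for CYP1A1, CYP1B1, CYP2E1, AHRR, ARNT and POR.

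CYP1A1 (NCBI Gene 1543), the main extrahepatic DTIC oxidase and the classical AHR target, had 661 reads in the DR library and 883 in the WT library. After scaling this was 11.9 and 25.3 CPM. The level in the DR library was 2.13-fold lower, with a log2 ratio of -1.09 and a counting interval of -1.24 to -0.94 that reaches across the 2-fold threshold. CYP1A1 was the most abundant of the 4 P450 members in both libraries, also per length.

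CYP1A2 (NCBI Gene 1544), the principal DTIC oxidase of liver, starts 23317 bases from CYP1A1 and is read in the opposite direction. It had 142.83 and 112.51 estimated reads in the DR and WT libraries, or 2.57 and 3.24 CPM. The log2 ratio was -0.33, and the interval of -0.70 to 0.04 includes no difference. The counts of CYP1A2 are fractional, whereas those of CYP1A1, its closest relative, are whole in both libraries, and how the fractions arose is not given in the sources used here.

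CYP1B1 (NCBI Gene 1545), an extrahepatic enzyme that oxidises polycyclic hydrocarbons and oestrogens, had 20 reads in the DR library and 59 in the WT library, or 0.36 and 1.69 CPM. It was 4.70-fold lower in the DR library (log2 ratio -2.23, interval -3.04 to -1.48). RMDN2 overlaps its gene span on the other strand and had 79 and 81 reads. The strand setting of the counting is not given, so reads from any sequence shared by the pair cannot be told apart.

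CYP2E1 (NCBI Gene 1571), the ethanol-inducible liver enzyme, was barely detected. It had 6 reads in the DR library and 27 in the WT library, or 0.11 and 0.77 CPM, where 3 reads are worth 0.054 and 0.0861 CPM. The log2 ratio of -2.84 was the lowest of the members and had the widest interval, -4.41 to -1.54. SYCE1 overlaps it on the other strand and is listed without a count. SCART1, a protein-coding gene, overlaps it on the same strand and is not listed under that name.

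To place the enzymes on 1 scale, levels were divided by gene length and expressed as TPM, a scale on which genes of different length can be compared. The summed level of CYP1A1, CYP1A2 and CYP2E1, the DTIC oxidases, was 12.0 TPM in the DR library and 25.1 TPM in the WT library. CYP1A1 supplied 83.5% and 86.5% of these sums. The reads of the 3 genes together, 810 and 1023, gave a log2 ratio of -1.01 (interval -1.14 to -0.87). The sums therefore follow CYP1A1, and the larger ratios of CYP2E1 and CYP1B1 concern transcripts near or below 1 TPM.

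AHR (NCBI Gene 196), the receptor itself, differed little. It had 857.01 and 610.99 estimated reads in the DR and WT libraries, or 15.4 and 17.5 CPM. The log2 ratio was -0.18 (interval -0.34 to -0.03). AC019117.2, a protein-coding gene, overlaps AHR on the same strand and is not listed under that name.

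ARNT (NCBI Gene 405), the nuclear partner of AHR and of the hypoxia-inducible factors, was abundant in both libraries, with 4494 and 4319.45 estimated reads. It stood at 80.9 and 123.9 CPM, 1.53-fold lower in the DR library (log2 ratio -0.62, interval -0.68 to -0.55), below the 2-fold threshold. CYP1A1 was thus the member just past the threshold and ARNT the next one inside it.

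AHRR (NCBI Gene 57491), the AHR-induced repressor, had 257.91 estimated reads in the DR library and 514.87 in the WT library, or 4.64 and 14.8 CPM. It was 3.18-fold lower in the DR library, and the whole interval of the log2 ratio (-1.89 to -1.45, estimate -1.67) lay beyond 2-fold. PDCD6 overlaps it on the same strand and had 77.7 and 67.2 CPM (log2 ratio 0.21). Reads shared between the overlapping models could be split by the counting.

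POR (NCBI Gene 5447), the electron donor of every microsomal P450, was the only member above 0 on the log2 scale. It had 4079 and 1773 reads in the DR and WT libraries, or 73.4 and 50.9 CPM, and was 1.44-fold higher in the DR library (log2 ratio 0.53, interval 0.45 to 0.61), below the 2-fold threshold. TMEM120A overlaps it on the other strand and had a log2 ratio of 0.49. In TPM, POR stood at 5.42 times the summed DTIC oxidases in the DR library and 1.83 times in the WT library.

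The order of levels differed between the libraries at the top and at the bottom. In the DR library it ran, in TPM, from POR (65.3) through ARNT (38.2), CYP1A1 (10.1), AHR (5.51), AHRR (1.84), CYP1A2 (1.84) and CYP1B1 (0.16) to CYP2E1 (0.14). In the WT library it ran from ARNT (59.2) through POR (45.8), CYP1A1 (21.7), AHR (6.34), AHRR (5.94), CYP1A2 (2.34) and CYP2E1 (1.05) to CYP1B1 (0.74). Counting intervals overlapped between AHRR and CYP1A2 and between CYP1B1 and CYP2E1 in the DR library, and between AHR and AHRR and between CYP2E1 and CYP1B1 in the WT library. The other neighbours were apart by more than counting error. Against median levels of 14.4 and 14.5 TPM for all genes with at least 10 reads, POR and ARNT lay above in both libraries and CYP1A1 only in the WT library.

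**Figure D2:**
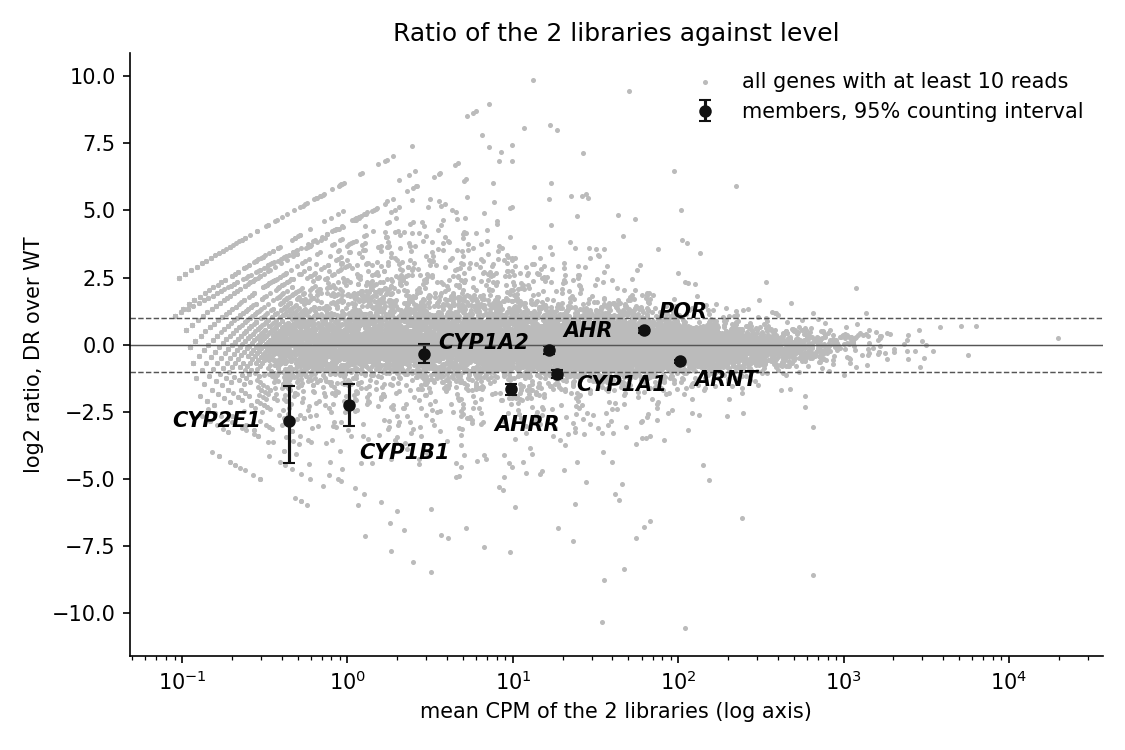
Log2 ratio, DR library over WT library, against the mean CPM (log axis) for all 16210 genes with at least 10 reads (grey) and for the 8 members (black, with 95% counting intervals). Dashed lines mark 2-fold, and CYP1A1, AHRR, CYP1B1 and CYP2E1 lie below the lower one.

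The count of lower members rests on the scale at low levels. With 5 CPM added to both libraries before the ratio, 1 member, AHRR (-1.04), was still at least 2-fold lower, and CYP1A1 stood at -0.84.

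The cytosolic partners of AHR were next examined, with 8 genes of the complex and of AHR turnover, all of them abundant enough to measure. At 2-fold, 1 was higher and 0 were lower in the DR library, against 12.0% and 6.46% of all genes, and the median log2 ratio was 0.13. HSP90AB1, a constitutive HSP90 chaperone, had 2351 and 2313 CPM (log2 ratio 0.02), and PTGES3, the p23 cochaperone, 552.7 and 584.2 CPM (-0.08). HSP90AA1, the inducible HSP90, was 1.80-fold lower, with 851.4 CPM in the DR library and 1531 CPM in the WT library. STUB1, a ubiquitin ligase that acts on chaperone clients, had a log2 ratio of 0.33. SRC, a tyrosine kinase, was the higher one, at 12.4 against 3.61 CPM (3.42-fold, log2 ratio 1.77).

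Other targets of AHR did not pass 2-fold in either direction. Of 14 listed, 10 had counts and 8 had at least 10 reads. Of the 8, 0 were higher and 0 lower, against 12.0% and 6.46% of all genes, so few would be looked for among 8. The median log2 ratio was -0.36. TIPARP, an ADP-ribosyltransferase that damps AHR, had 105.2 CPM in the DR library and 117.1 CPM in the WT library (log2 ratio -0.15). NQO1, a quinone reductase, had a log2 ratio of -0.43, NFE2L2, the oxidative stress factor NRF2, of -0.54 and SLC7A5, an amino acid transporter, of -0.62. The ratios of the 8 genes ran from -0.62 to 0.42, so that of the AHR targets among the members CYP1A1, CYP1B1 and AHRR lay below the range of these other targets and CYP1A2 (-0.33) lay within it. A test of that difference was not possible with 1 library per condition. Most of these targets also answer to other factors.

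Among bHLH-PAS factors and coactivators, some of which pair with ARNT, 14 genes had at least 10 reads. Of the 14, 3 were higher and 1 was lower in the DR library, against 12.0% and 6.46% of all genes. The median log2 ratio was -0.17. ARNT2, a close relative of ARNT, had 270 reads in the DR library and 1 in the WT library (log2 ratio 7.40, interval 4.91 to 12.71). Per length it reached 1.65 TPM in the DR library, against 38.2 TPM for ARNT there. EPAS1, the hypoxia factor HIF-2alpha and a partner of ARNT, was 2.25-fold higher, at 52.2 against 23.2 CPM, while HIF1A had 54.9 and 84.1 CPM (log2 ratio -0.62). ARNTL2, a clock factor, was 2.51-fold higher. NPAS3, a neuronal factor, had 3 reads in the DR library and 109 in the WT library (log2 ratio -5.86, interval -8.16 to -4.27). The coactivators NCOA2 and NCOA3 had log2 ratios of -0.35 and 0.55.

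**Figure D3:**
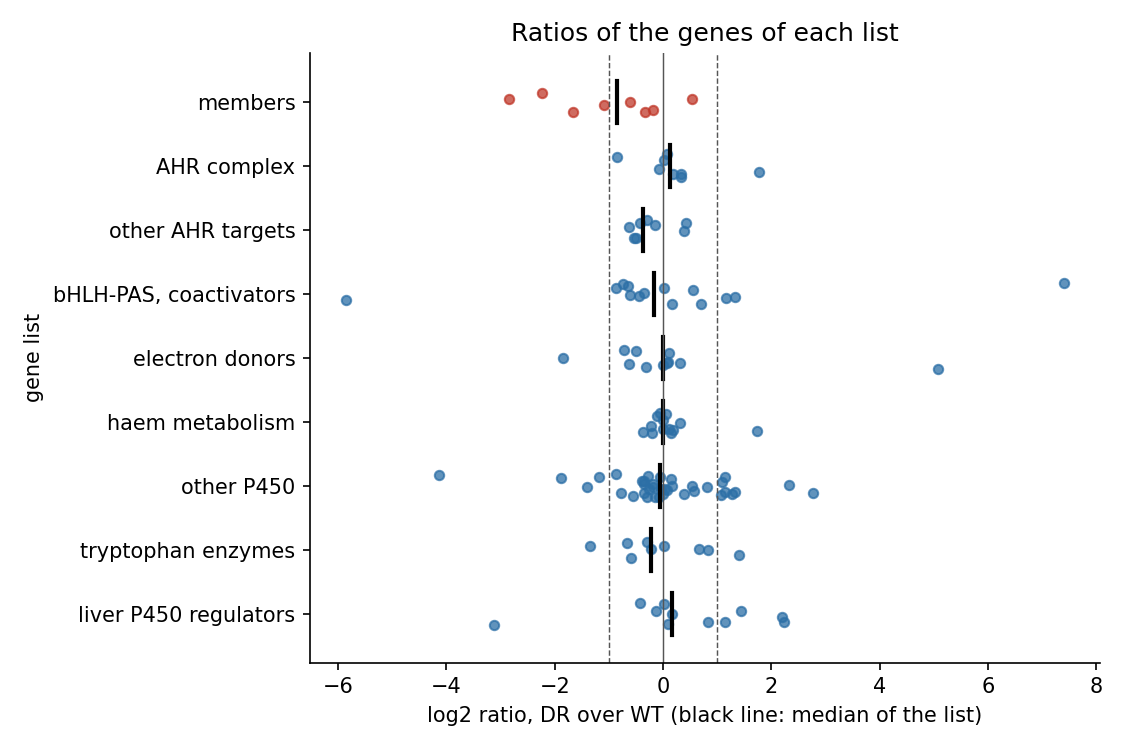
Log2 ratios, DR library over WT library, of the genes with at least 10 reads in each list (points, spread vertically for legibility), with the median as a black line and 2-fold as dashed lines. The members have the lowest median (-0.85), and the haem list lies within 2-fold except for ALAS2.

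Proteins that pass electrons to P450 enzymes or bind them were compared next. Of 11 genes, 1 was higher and 1 lower in the DR library, against 12.0% and 6.46% of all genes, with a median log2 ratio of 0.00. PGRMC1, a haem-binding membrane protein that associates with P450 enzymes, was 3.59-fold lower, with 36.6 CPM in the DR library and 131.3 CPM in the WT library (log2 ratio -1.84, interval -1.92 to -1.77). CYB5R2, a cytochrome b5 reductase, had 162 and 3 reads in the DR and WT libraries (log2 ratio 5.08, interval 3.51 to 7.38). The abundant b5 genes differed less, with log2 ratios of 0.08 for CYB5R3, -0.31 for CYB5R1 and 0.00 for CYB5B.

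Genes of haem supply mostly differed by less than 2-fold, as did most genes of like depth. Of the 13 genes of haem synthesis and breakdown, 12 differed by less than 2-fold, against 13217 of all 16210 genes, and the median log2 ratio was 0.01. Those 12 each had more than 1000 reads over both libraries. Among all genes with 1000 reads or more, 3.44% were lower and 4.39% higher. ALAS1, the rate-limiting enzyme outside red cells, had 55.0 and 63.9 CPM (log2 ratio -0.22; it falls outside the rule for named genes). The most abundant were BLVRA (-0.06), BLVRB (0.15), UROD (0.32) and HMOX2 (0.00). The exception, ALAS2 of red cells, had 16 and 3 reads, with an interval of -0.06 to 4.16 that includes no difference.

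In the wider P450 family, 48 other genes had counts and 37 had at least 10 reads. Of these 8 were higher and 4 lower in the DR library, against 12.0% and 6.46% of all genes, and the median log2 ratio was -0.06. Many of the 37 had few reads, and among all genes with at least 10 but under 100 reads 28.1% were higher and 14.7% lower. Of the 22 with at least 50 reads 3 were higher and 2 lower, against 1395 and 742 of all 14426 genes with as many reads. Among the better covered, CYP2J2, which makes epoxides of arachidonic acid, was 2.21-fold higher in the DR library (176 and 50 reads). CYP2U1, an orphan fatty acid hydroxylase, was 2.22-fold higher (545 and 154 reads), and CYP4F8, a prostaglandin hydroxylase, had a log2 ratio of 2.77 (87 and 8 reads). CYP39A1, an oxysterol hydroxylase, was 3.68-fold lower (26 and 60 reads), and CYP4A11 was 2.63-fold lower (20 and 33 reads).

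The most abundant P450 genes per length were enzymes of vitamin D and sterol metabolism. CYP24A1, which inactivates vitamin D, had 68.6 TPM in the DR library and 126.1 TPM in the WT library (log2 ratio of CPM -0.86). CYP51A1 of cholesterol synthesis had 85.1 and 81.7 TPM, CYP2R1, a vitamin D 25-hydroxylase, 17.9 and 16.2 TPM, and CYP20A1, an orphan enzyme, 13.2 and 14.0 TPM. Among the 29 P450 genes with a mean of at least 0.5 TPM, CYP1A1 ranked 4 by the mean, 6 in the DR library and 3 in the WT library. CYP1A2 ranked 16 in the DR library and 12 in the WT library. CYP2E1 reached the mean of 0.5 TPM only through the WT library (0.14 TPM in the DR library and 1.05 TPM in the WT library). Genes low in both libraries were left out, so its place in the DR library is not read here. CYP1B1 fell below the mean of 0.5 TPM.

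**Figure D4:**
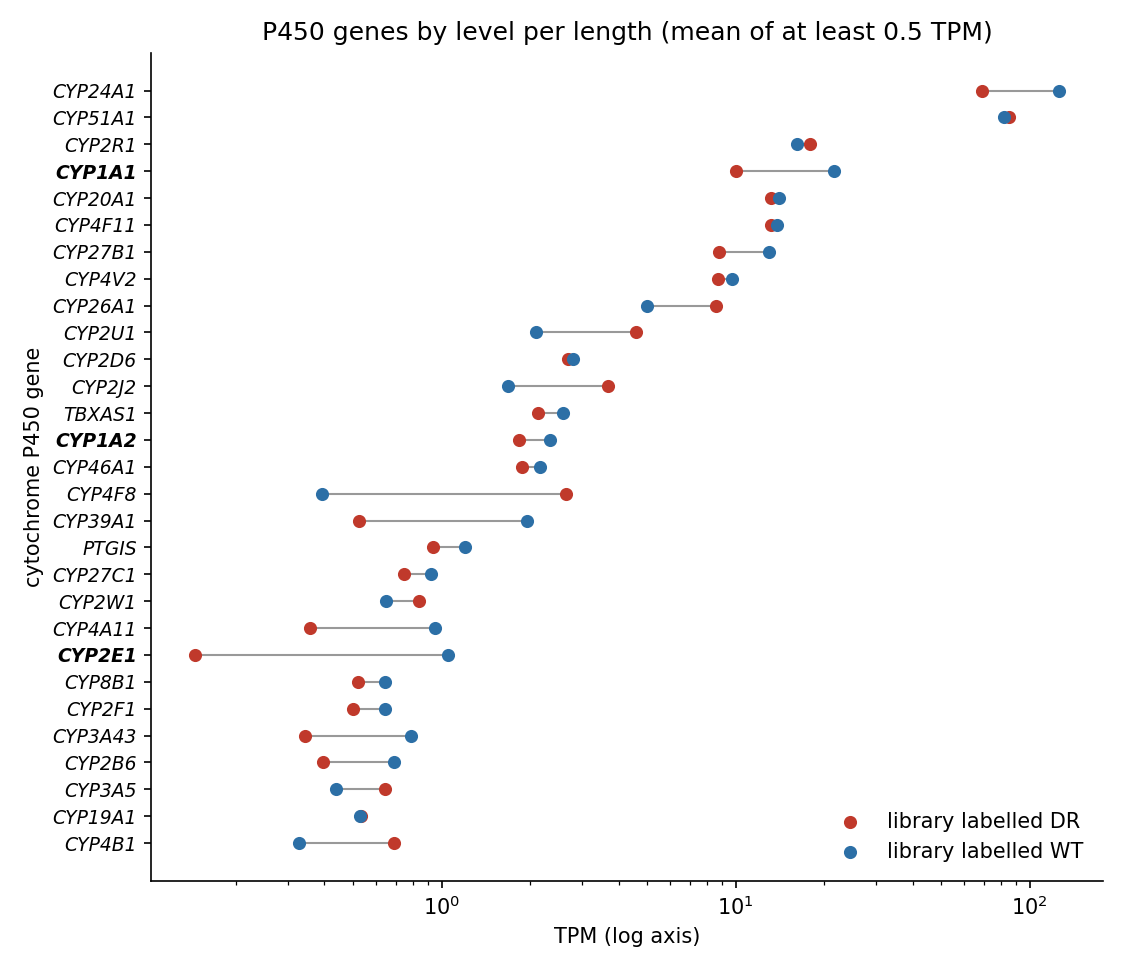
TPM (log axis) in the DR library (red) and the WT library (blue) of the 29 P450 genes with at least 10 reads and a mean of at least 0.5 TPM, in order of the mean, members in bold. CYP1A1 stands at rank 4 by the mean with the red point to the left. CYP2E1 enters the set through its level in the WT library.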

How the data were processed

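RNA sequencing of 1 library labelled DR and 1 labelled WT was analysed. The authors deposited 1 table of estimated counts per gene, not scaled for library size, with gene lengths. Columns with the authors' ratio on the log2 scale, p-value, q-value and direction were not used. Per the labels' processing notes, Bowtie 0.12.2 and build hg19 were named, and the counting tool and annotation are not given in the sources used here. Counts, fractional in either library for 9108 of 18267 genes, were rounded, and 663 genes without a count were left out. TMM factors came from edgeR 4.0.16 and size factors from DESeq2 1.42.0 in R 4.3.3, and ratios and intervals from SciPy 1.17.1 in Python 3.11.15. A library with 0 reads was set to a floor of 3 reads, and no ratio was formed with both libraries at or under 3. TPM was computed from the rounded counts and the deposited lengths. Start regions were from RefSeq GRCh38.p14 and overlaps of genes from GENCODE v29 (GRCh38), and the table itself gives no coordinates. PCR reads without molecular identifiers are not independent molecules. The calculation was tested on simulated counts. All members are named, and in each list the 4 genes with the highest mean TPM and up to 3 higher and 3 lower genes past 2-fold with the largest ratios whose mean reached 1 CPM. ALAS1, ALAS2, CYP4F8, CYP4A11, marker genes and the genes that overlap members were named after their values were seen. A result for 1 gene of the lists is not reported here. The members and lists were chosen with earlier results of these data known. Alternatives were other scaling factors, pseudocounts, filters and thresholds.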

Additional observations from a re-analysis of the deposited data

How the results depend on the processing

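No paired analysis was possible because each condition has 1 library, and for the same reason no library could be left out. Depth limits CYP2E1 and CYP1B1, with 33 and 79 reads over both libraries. All members kept the sign of their ratio with DESeq2's size factors, library totals, pseudocounts of 0.5 and 5 CPM and unrounded counts. A pseudocount of 0.5 CPM moved the log2 ratios of CYP1B1 to -1.35 and CYP2E1 to -1.07. A pseudocount of 5 CPM moved CYP1A1 to -0.84, CYP1B1 to -0.32, CYP2E1 to -0.18 and AHRR to -1.04, since a pseudocount shrinks low genes, and left 1 lower member. A 4-fold threshold left 2 lower members. A filter at 50 reads left CYP2E1 out, and requiring the whole interval at or beyond 2-fold left CYP1A1 out, with 3 lower members each. The numbers of all genes higher and lower, 1946 and 1047, became 1212 and 674 with 0.5 CPM, 423 and 333 with 5 CPM, 1095 and 614 by the whole interval, 3140 and 2277 at 1.5-fold and 798 and 374 at 4-fold. With genes of whole-number counts in both libraries, chosen after seeing the data, 7508 genes gave 1208 and 528. Among the other P450 genes, the 8 higher and 4 lower became 2 and 1 with 0.5 CPM and 0 and 0 with 5 CPM.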

Other observations

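Enzymes that make or clear tryptophan-derived ligands of AHR were measured as well. Of 9 genes, 1 was at least 2-fold higher and 1 lower in the DR library, against 12.0% and 6.46% of all genes. The median log2 ratio was -0.22. IL4I1, an amino acid oxidase whose products activate AHR, was 2.64-fold higher, at 6.82 against 2.58 CPM (log2 ratio 1.40, interval 1.07 to 1.75). TDO2, tryptophan dioxygenase, was 2.56-fold lower, at 2.56 against 6.54 CPM (log2 ratio -1.36, interval -1.67 to -1.05). The abundant AFMID, a formamidase of the kynurenine route, had 54.6 and 53.8 CPM, and the aminotransferases KYAT1 and KYAT3 had log2 ratios of 0.67 and -0.30.

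Among 11 regulators of hepatic P450 genes with at least 10 reads, 4 were at least 2-fold higher in the DR library, against 12.0% of all genes. The 4 became 1 with 0.5 CPM added to both libraries, 0 with 5 CPM, and 2 of 8 with at least 50 reads. FOXA1 and CEBPA, factors of epithelial and hepatic genes, were 2.71-fold and 2.21-fold higher on 151 and 35 reads and on 81 and 23 reads. FOXA2 had 22 and 0 reads, 4.60-fold higher with the WT library set to the floor of 3 reads (lower counting limit of the log2 ratio 1.78). NR1I2, the xenobiotic receptor PXR, had 15 and 2 reads. Both were named after their values were seen, and 28.1% of all genes with at least 10 but under 100 reads were higher. RXRA and RXRB, the shared partners of the nuclear receptors, had log2 ratios of 0.02 and 0.10, and CEBPB, a C/EBP factor, of -0.43.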
